A study of Macaca mulatta with 11 samples.

Results

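The genes of the ubiquitin and proteasome system were examined in cumulus cells of rhesus monkeys, the somatic cells that surround the oocyte inside the follicle. They were taken by symbol: proteasome subunits and their partners (PSMA to PSMG), ubiquitin-activating enzymes (UBA) and ubiquitin-conjugating enzymes (UBE2). With them came cullins (CUL), F-box proteins (FBXL, FBXO and FBXW) and the USP, UCHL and OTU deubiquitinases. This gave 166 genes of the 14132 with a symbol on the array, each read from its probe set with the highest mean. Expression was measured on 11 Affymetrix Rhesus Macaque arrays. The 3 in vitro matured samples (IVM) came from cumulus-oocyte complexes (COCs) matured in culture after treatment with follicle-stimulating hormone (FSH). The 4 in vivo matured samples (VVM) had matured inside the monkey. Besides FSH these monkeys received human chorionic gonadotropin (hCG), a stand-in for the ovulatory surge. The 4 pre-maturation samples (PM) came from immature complexes after FSH alone, so all 3 groups had received FSH. Whether the samples of 1 group come from different monkeys is not in the labels. The p-values therefore rest on the spread among these arrays alone, which may be technical. The series set IVM against VVM to look for cumulus markers of oocyte quality, with PM as the state before maturation.

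The 26S proteasome degrades proteins that carry chains of ubiquitin. Its 20S core is a barrel of alpha and beta rings, with the proteolytic sites on beta subunits inside. Its 19S cap binds the ubiquitin chain, removes it and feeds the substrate into the barrel with a ring of ATPases. Ubiquitin is activated by an E1, passed to an E2 and joined to the substrate by an E3 ligase. The cullin-RING ligases form the largest E3 family, and F-box proteins are the parts of one class of them that pick the substrate. Deubiquitinases take ubiquitin off again. In the oocyte this system removes cyclin B and securin so that meiosis can proceed, and cumulus cells meanwhile stop dividing and lay down a hyaluronan matrix.

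The median log2 intensity of an array was 5.34 to 5.53, and 147 of the 166 genes had a mean above the array median. Cumulus and granulosa markers (17 measured, none with a mean below the array median) averaged 9.89 to 10.02 in IVM, 9.30 to 9.91 in VVM and 9.22 to 9.41 in PM, as log2 intensity. Leukocyte markers (15 measured) averaged 5.92 to 5.99 in IVM, 5.99 to 7.79 in VVM and 5.78 to 5.82 in PM, and the 2 highest values were VVM 2 and VVM 3. Oocyte markers (9 measured) averaged 7.41 on PM 1 and at most 5.79 on any other array. For single genes described here, the value without PM 1, VVM 2 and VVM 3 together is given where that ends a stated call. The array maker's 27 bacterial hybridization control probe sets lay between 11.46 and 12.18 in IVM, 10.41 and 11.32 in VVM, and 9.89 and 10.28 in PM. They separated all 3 groups from each other, so the effect of hybridization and that of the group cannot be told apart in any comparison. In such bulk samples, fewer cells of a type and less RNA per cell cannot be told apart either.

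A gene was called when its Benjamini-Hochberg adjusted p, taken over all 52766 probe sets of a comparison in limma, was under 0.05. In IVM against VVM, 44 of the 166 genes were called, 25 higher and 19 lower, while 16.7% of all genes were called (9.06% higher and 7.63% lower). In IVM against PM, 89 were called, 47 higher and 42 lower, with 45.9% of all genes called (25.0% higher and 20.9% lower). In VVM against PM, 67 were called, 29 higher and 38 lower, with 39.8% of all genes called (18.0% higher and 21.8% lower). The called shares of the 166 genes were 26.5%, 53.6% and 40.4%. Bright genes were called more often than all genes, at 29.8%, 55.7% and 52.0% of the 5001 with a mean log2 of at least 8. That background was chosen after the values were seen. The shares of the 166 genes, dim ones included, were not above it. Among the 147 with a mean above the array median, the shares were 29.9%, 55.8% and 42.2%. The share of members with a mean log2 of at least 8 was not taken. The median log2 difference over the 166 genes was 0.05, 0.07 and -0.02 in these 3 comparisons, beside 0.08, 0.12 and 0.04 over all genes. At a 2-fold difference or more, 17, 40 and 25 of the 166 genes were called in the 3 comparisons, with 7.98%, 17.9% and 17.0% of all genes. At least 1 comparison called 117 of the genes and 49 were called in none. The comparisons share arrays, so values are given side by side.

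Scaling moved the split between directions. With each array centred on its median, the calls were 31 higher and 54 lower in IVM against PM and 20 higher and 45 lower in VVM against PM, while over all genes 37.9% (54.5% uncentred) and 32.6% (45.3% uncentred) of the calls were higher and the medians were -0.03 and -0.07. With cyclic loess, VVM against PM had 39 higher and 30 lower. With the hybridization controls as a covariate, 5, 0 and 19 of the 166 genes were called, in the order used above, and 2.33%, 0.0142% and 11.2% of all genes were. Without PM 1, VVM 2 and VVM 3 the calls were 25, 74 and 41, and 9.86%, 34.7% and 21.4% of all genes were called.

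**Figure D1:**
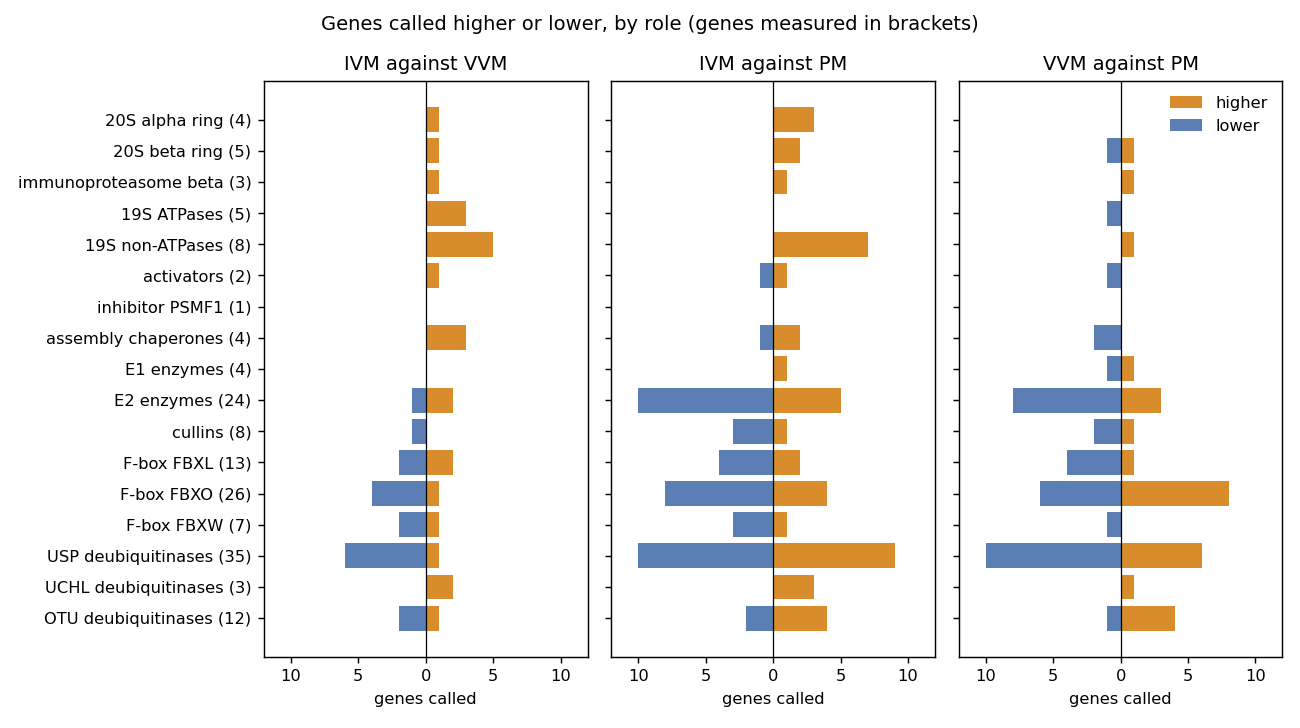
Number of genes called higher (bars to the right of 0) or lower (bars to the left of 0) in each role, with 1 panel per comparison. The number of genes measured in a role stands in brackets. The 8 measured genes counted by symbol as 19S non-ATPases had 5 and 7 higher calls in IVM against VVM and against PM, with none lower. The 24 E2 enzymes had 10 and 8 lower calls in IVM and VVM against PM.

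Every proteasome subunit gene that was called in IVM was higher there than in the other group. By symbol, 25 measured genes were counted as subunits (20S, 19S with PSMD9, and the inducible and thymic beta subunits). Of these, 11 rose and none fell in IVM against VVM, with a median log2 difference of 0.34. In IVM against PM, 13 rose and none fell, with a median of 0.50. In VVM against PM, 3 rose and 2 fell, with a median of 0.11. That last split turned with the scaling, to 2 higher and 4 lower after centring and 8 higher and 1 lower after cyclic loess, and centring also left 9 higher and 1 lower in IVM against PM. The mean of the 22 constitutive subunits was 10.92, 10.65 and 11.12 on the IVM arrays, 10.53, 10.48, 10.51 and 10.48 on the VVM arrays and 10.46, 10.43, 10.51 and 10.49 on the PM arrays, as log2 intensity. All 3 IVM arrays lay above all 8 others, and the VVM and PM arrays overlapped. Genes as bright as these (5001 genes with a mean log2 of at least 8, a background chosen after the values were seen) were called higher in 15.6%, 21.6% and 17.7% in the 3 comparisons, and 22 of the 25 subunits belong to them.

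In the 20S core, 2 of 9 constitutive subunits rose in IVM against VVM and 5 of 9 in IVM against PM, with none lower. PSMB6, the beta subunit with the caspase-like site, was at 12.01, 12.10 and 12.02 in IVM, 11.37, 11.47, 11.36 and 11.30 in VVM and 11.08, 10.92, 11.30 and 11.07 in PM, as log2 intensity. The IVM arrays stood clear of both other groups (log2 difference 0.67 ± 0.11 SE, adjusted p = 0.00346 against VVM, and 0.95 ± 0.11 SE, adjusted p = 0.000105 against PM). PSMA7, an outer-ring subunit, was at 13.13, 13.15 and 13.15 in IVM, 12.44, 12.65, 12.53 and 12.29 in VVM and 12.39, 12.23, 12.85 and 12.96 in PM. It was called in IVM against VVM (log2 difference 0.67 ± 0.17 SE, adjusted p = 0.0305) and against PM (0.53 ± 0.17 SE, adjusted p = 0.0299). The IVM values lay close together above all others, and PM overlapped VVM. Leaving out any single IVM array, VVM 1, VVM 3 or VVM 4 ended the PSMA7 call against VVM, and leaving out any single IVM array, PM 1 or PM 2 ended the call against PM. Both were also lost without PM 1, VVM 2 and VVM 3 together (0.78, adjusted p = 0.0796 against VVM; 0.46, adjusted p = 0.108 against PM).

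PSMB1, a structural beta subunit, was at 12.22, 12.12 and 12.36 in IVM, 12.27, 12.05, 12.01 and 11.89 in VVM and 11.28, 11.46, 11.72 and 11.47 in PM. It rose in both matured groups, by 0.75 ± 0.13 SE in IVM (adjusted p = 0.0014) and by 0.57 ± 0.12 SE in VVM (adjusted p = 0.00492), and IVM and VVM overlapped. Its other probe set was called lower in IVM than in VVM (log2 difference -0.84, adjusted p = 0.0228) and than in PM (-0.65, adjusted p = 0.0262). PSMB2, another beta subunit, fell in VVM against PM (log2 difference -0.70 ± 0.17 SE, adjusted p = 0.0102). Its levels were 11.37 ± 0.48 in IVM, 10.85 ± 0.10 in VVM and 11.55 ± 0.12 in PM (SD, n = 3, 4 and 4). Without PM 1, VVM 2 and VVM 3 the calls of PSMB1 (0.53, adjusted p = 0.0796) and PSMB2 (-0.79, adjusted p = 0.076) in VVM against PM were lost. PSMA2 rose in IVM against PM (log2 difference 0.65 ± 0.16 SE, adjusted p = 0.00832), but 3 of its other 4 probe sets were called lower there. PSMB5 and PSMB7, which carry the chymotrypsin-like and trypsin-like sites, were called in no comparison, nor was PSMA1.

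**Figure D2:**
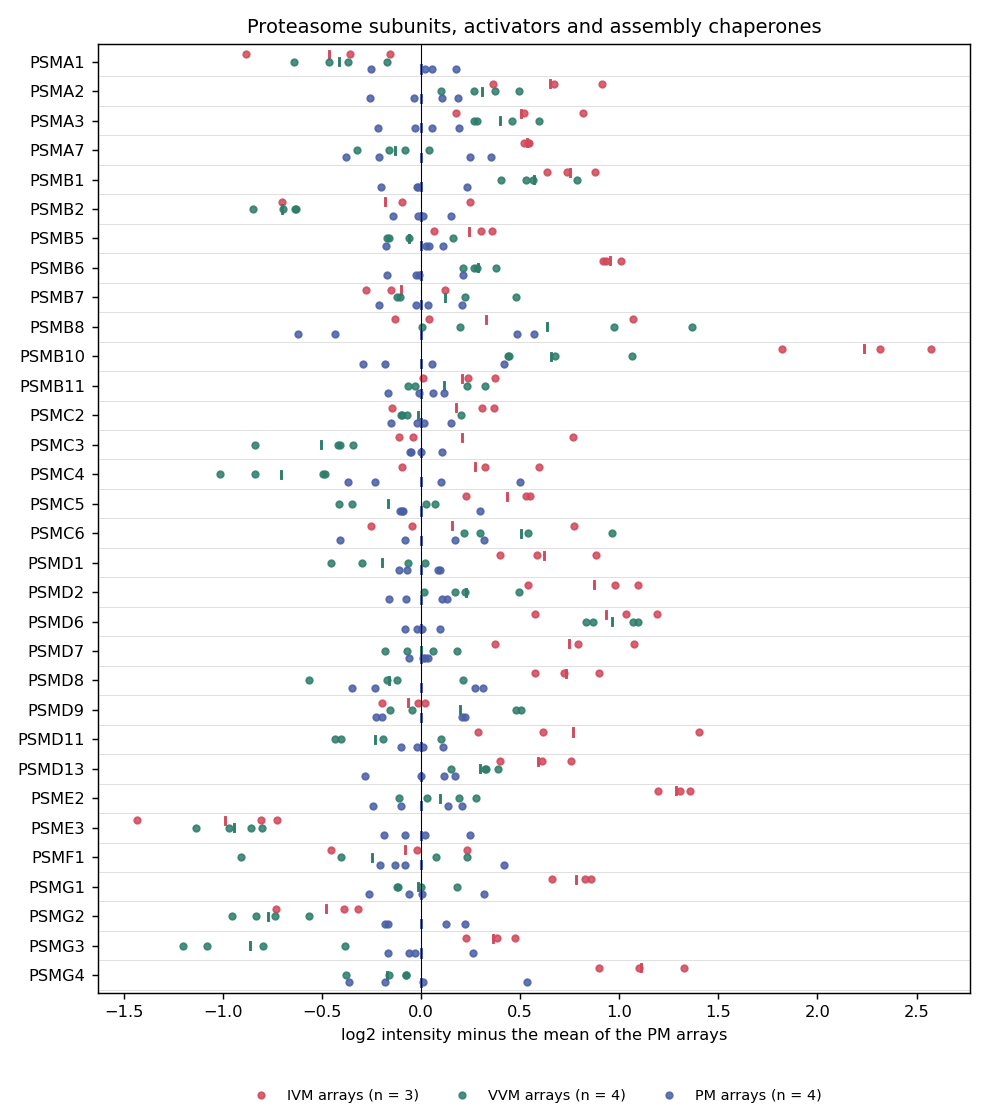
Each dot is 1 array, as log2 intensity minus the mean of that gene's 4 PM arrays, for the proteasome subunits, activators, the inhibitor PSMF1 and the assembly chaperones. Short bars are group means, with IVM above VVM above PM in each row. PSMB10, PSME2, PSMG1 and PSMG4 have all 3 IVM arrays to the right of every VVM and PM array, and PSME3 has all IVM and VVM arrays to the left of the PM arrays.

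The 19S cap held 8 of the 11 subunits called in IVM against VVM and 7 of the 13 called in IVM against PM. Of the 13 measured genes counted with it by symbol, none fell in IVM, and 1 rose and 1 fell in VVM against PM. They include PSMD9, which was called in no comparison. The median log2 differences were 0.65, 0.59 and -0.02. PSMD7, a lid subunit, was at 10.76, 10.35 and 11.05 in IVM, 10.15, 9.90, 10.03 and 9.79 in VVM and 9.99, 9.98, 9.91 and 10.005 in PM. All IVM values lay above all others (IVM against VVM log2 difference 0.75 ± 0.16 SE, adjusted p = 0.0108; IVM against PM 0.75 ± 0.16 SE, adjusted p = 0.00353). PSMD1, a scaffold of the base that docks ubiquitin receptors, was at 11.89, 11.40 and 11.59 in IVM, 10.94, 10.71, 11.02 and 10.55 in VVM and 10.89, 10.93, 11.09 and 11.10 in PM. It too separated IVM from VVM (log2 difference 0.82 ± 0.15 SE, adjusted p = 0.00572) and from PM (0.62 ± 0.15 SE, adjusted p = 0.00769). PSMD11, a lid subunit, had the largest difference of the cap in IVM against VVM (log2 difference 1.0 ± 0.23 SE, adjusted p = 0.0164). It was at 9.31, 8.98 and 10.09 in IVM, 8.28, 8.26, 8.49 and 8.79 in VVM and 8.59, 8.70, 8.67 and 8.80 in PM. Its difference from PM was 0.77 (adjusted p = 0.02), and 0.45 and uncalled without IVM 3. Leaving out PM 1, VVM 2 and VVM 3 together ended the calls against VVM of PSMD7 (0.75, adjusted p = 0.0883) and PSMD11 (0.92, adjusted p = 0.129). It also ended that of PSMD11 against PM (0.73, adjusted p = 0.0762).

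PSMD8, a lid subunit, was at 11.02 ± 0.16 in IVM, 10.13 ± 0.32 in VVM and 10.29 ± 0.34 in PM (SD, n = 3, 4 and 4). It rose by 0.89 ± 0.21 SE against VVM (adjusted p = 0.019) and by 0.73 ± 0.21 SE against PM (adjusted p = 0.0171), and leaving out IVM 2 ended both calls. PSMD2, the other base scaffold, rose by 0.87 ± 0.16 SE against PM (adjusted p = 0.00166). Its call against VVM (difference 0.65, adjusted p = 0.0241) was lost without any of IVM 1, IVM 3, VVM 1 and VVM 3. The calls of PSMD8 (0.69, adjusted p = 0.105) and PSMD2 (0.75, adjusted p = 0.0646) against VVM were lost without PM 1, VVM 2 and VVM 3 together. PSMD6, a lid subunit, was at 11.19, 10.73 and 11.35 in IVM, 11.25, 10.98, 11.22 and 11.02 in VVM and 10.13, 10.07, 10.16 and 10.25 in PM. It rose in IVM (0.93 ± 0.15 SE, adjusted p = 0.000706) and in VVM (0.97 ± 0.14 SE, adjusted p = 0.000379) against PM, and the 2 matured groups overlapped.

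Among the 5 measured ATPases of the unfolding ring, 3 rose in IVM against VVM and none was called in IVM against PM. PSMC4 was at 9.44, 9.02 and 9.72 in IVM, 8.10, 8.28, 8.63 and 8.64 in VVM and 8.89, 9.62, 8.75 and 9.22 in PM. Its PM arrays overlapped both other groups. It rose in IVM against VVM (log2 difference 0.98 ± 0.23 SE, adjusted p = 0.0197) and fell in VVM against PM (-0.71 ± 0.21 SE, adjusted p = 0.0272). The call in IVM against VVM was lost without IVM 1, IVM 3 or VVM 1, and that in VVM against PM without PM 2, PM 4, VVM 1 or VVM 2. PSMC3 was at 8.49, 8.57 and 9.37 in IVM and at 8.26, 8.20, 8.19 and 7.77 in VVM (log2 difference 0.71 ± 0.20 SE, adjusted p = 0.0447), and leaving out any one array except IVM 1 ended its call. Without IVM 3 its difference was 0.43. PSMC4 (1.02, adjusted p = 0.0909) and PSMC3 (0.80, adjusted p = 0.143) lost their calls in IVM against VVM without PM 1, VVM 2 and VVM 3 together. PSMC4 then also lost its call in VVM against PM (-0.83, adjusted p = 0.108). PSMC5 (log2 difference 0.60 ± 0.16 SE, adjusted p = 0.0358) lost its call without IVM 1, IVM 3, VVM 1 or VVM 4. Leaving out PM 1, VVM 2 and VVM 3 together left 4 of the 11 subunits called in IVM against VVM (PSMB6, PSMB10, PSMC5 and PSMD1) and called 10 in IVM against PM, with none lower. Leaving out single arrays gave 6 to 10 in IVM against VVM (7 without IVM 1, 6 without IVM 3 and 6 without VVM 1), and 3 in VVM against PM without PM 2.

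Chaperones that build the 20S barrel were also higher in IVM than in VVM. PSMG1 to PSMG4 pair up to hold alpha subunits while the ring closes, and 3 of the 4 rose in IVM against VVM. Over all genes 9.06% rose there, and 15.6% of those with a mean log2 of at least 8. PSMG4 was at 8.91, 9.11 and 9.34 in IVM, 7.63, 7.93, 7.93 and 7.85 in VVM and 7.65, 8.55, 7.83 and 8.02 in PM. PSMG1 was at 11.29, 11.48 and 11.45 in IVM, 10.63, 10.51, 10.51 and 10.81 in VVM and 10.95, 10.37, 10.56 and 10.63 in PM. Both had every IVM array above every other array. For PSMG4 the difference was 1.28 ± 0.20 SE from VVM (adjusted p = 0.00245) and 1.11 ± 0.20 SE from PM (adjusted p = 0.00143). For PSMG1 it was 0.79 ± 0.14 SE from VVM (adjusted p = 0.00535) and 0.78 ± 0.14 SE from PM (adjusted p = 0.00175). PSMG3, the partner of PSMG4, was at 9.43, 9.28 and 9.52 in IVM, 8.25, 7.85, 8.66 and 7.97 in VVM and 8.98, 9.31, 9.01 and 8.88 in PM. There IVM and PM overlapped and VVM was the low group. The difference was 1.23 ± 0.19 SE in IVM against VVM (adjusted p = 0.00228) and 0.36 ± 0.19 SE in IVM against PM (adjusted p = 0.139). It was -0.87 ± 0.17 SE in VVM against PM (adjusted p = 0.00311). PSMG2, the partner of PSMG1, fell in VVM against PM (log2 difference -0.77 ± 0.14 SE, adjusted p = 0.00183). It also fell in IVM against PM (-0.48 ± 0.15 SE, adjusted p = 0.027). The other of its 2 probe sets was called higher in both comparisons. The PSMG2 call in VVM was lost without PM 1, VVM 2 and VVM 3 together (-0.61, adjusted p = 0.0705). After cyclic loess no assembly chaperone was called lower in IVM against PM, and the PSMG2 call in IVM was not followed with arrays left out.

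PSMB10 and PSME2, both inducible by interferon, rose in IVM against both other groups. PSMB10, the inducible beta subunit that replaces PSMB7 in the immunoproteasome, was at 9.60, 10.10 and 10.35 in IVM, 8.22, 8.23, 8.85 and 8.46 in VVM and 7.49, 7.84, 7.60 and 8.20 in PM. The 3 groups did not overlap, and IVM was 2.99-fold above VVM (log2 difference 1.58 ± 0.23 SE, adjusted p = 0.00168) and 4.72-fold above PM (2.24 ± 0.23 SE, adjusted p = 4.67e-05). VVM was 1.58-fold above PM (log2 difference 0.66 ± 0.21 SE, adjusted p = 0.0341), a call lost without PM 1, PM 2, PM 3, VVM 3 or VVM 4, without PM 1, VVM 2 and VVM 3 together (0.46, adjusted p = 0.28) and after centring. The other, dimmer probe set named for PSMB10 alone differed by 0.10 in IVM against VVM (adjusted p = 0.764), 0.80 in IVM against PM (adjusted p = 0.00488) and 0.70 in VVM against PM (adjusted p = 0.00794). A brighter probe set assigned to both PSMB10 and BEX4 differed by 0.10, -0.42 and -0.52 in the same order. Of these only the last was called (adjusted p = 0.0464), as lower in VVM than in PM. The difference between IVM and VVM therefore rests on 1 probe set. PSME2, a subunit of the interferon-inducible PA28 cap, was at 10.78, 10.62 and 10.73 in IVM, 9.31, 9.61, 9.70 and 9.45 in VVM and 9.32, 9.63, 9.18 and 9.56 in PM. IVM was 2.28-fold above VVM (log2 difference 1.19 ± 0.14 SE, adjusted p = 0.000609) and 2.44-fold above PM (1.29 ± 0.14 SE, adjusted p = 6.8e-05), and the VVM and PM arrays overlapped. The other probe set of PSME2 had a difference of -0.28 from VVM (adjusted p = 0.177) and was called lower than PM (log2 difference -0.35, adjusted p = 0.0384), so the PSME2 rise too rests on 1 probe set.

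PSMB8, the inducible counterpart of PSMB5, was at 7.27, 8.30 and 7.09 in IVM, 7.23, 8.20, 8.59 and 7.42 in VVM and 7.71, 6.60, 6.79 and 7.80 in PM. No comparison called it, and its 2 highest VVM values were those of VVM 2 and VVM 3, the arrays with the highest leukocyte markers. Those markers averaged 5.92 to 5.99 on the IVM arrays, where PSMB10 and PSME2 were highest. They averaged 5.99 to 7.79 in VVM and 5.78 to 5.82 in PM, and their part in the PSMB10 and PSME2 differences was not tested. Without PM 1, VVM 2 and VVM 3 the IVM against VVM differences were 1.68 for PSMB10 and 1.33 for PSME2 (adjusted p = 0.00930 and 0.00589). PSME3, the nuclear PA28 gamma cap, was at 7.23, 6.52 and 7.15 in IVM, 6.98, 7.15, 7.09 and 6.82 in VVM and 8.20, 7.77, 7.97 and 7.87 in PM. It fell in IVM (log2 difference -0.99 ± 0.18 SE, adjusted p = 0.00152) and VVM (-0.94 ± 0.16 SE, adjusted p = 0.00141) against PM. Another of its 3 probe sets was called higher in VVM, and the mean of the 3 had a difference of 0.15 there. PSMF1, an inhibitor of the 20S core, was not called, at 6.67 ± 0.35 in IVM, 6.50 ± 0.51 in VVM and 6.75 ± 0.28 in PM (SD, n = 3, 4 and 4). PSMB11, the thymic beta subunit, was below the array median in all groups (4.71 ± 0.18, 4.62 ± 0.19 and 4.50 ± 0.12 in IVM, VVM and PM).

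At the head of the conjugation cascade, the 4 E1 genes gave 3 calls in all, none in IVM against VVM. Their called shares in IVM and VVM against PM were 25.0% and 50.0%, beside 45.9% and 39.8% of all genes. UBA1, the main E1 for ubiquitin, rose in VVM against PM (log2 difference 0.58 ± 0.17 SE, adjusted p = 0.0211), a call lost without PM 4, VVM 3 or VVM 4 and after centring. UBA6, the second E1, rose in IVM against PM (log2 difference 0.81 ± 0.25 SE, adjusted p = 0.0267), a call lost without PM 2, IVM 1 or IVM 3 and after centring, and 2 of its other 3 probe sets were called lower. UBA2, a subunit of the E1 for SUMO, fell in VVM against PM (log2 difference -0.57 ± 0.16 SE, adjusted p = 0.0221), a call lost without PM 1, PM 4, VVM 2 or VVM 3 and after cyclic loess. All 3 calls were also lost without PM 1, VVM 2 and VVM 3 together (0.53, adjusted p = 0.189 for UBA1, 0.83, adjusted p = 0.0695 for UBA6 and -0.29, adjusted p = 0.347 for UBA2). UBA7, the E1 for the ubiquitin-like ISG15, was not called, with 13.01 ± 0.14 in IVM, 12.44 ± 0.38 in VVM and 12.69 ± 0.27 in PM (SD, n = 3, 4 and 4).

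More E2 enzymes fell than rose from PM. Of 24, 5 rose and 10 fell in IVM against PM (median log2 difference -0.32) and 3 rose and 8 fell in VVM against PM (median -0.25), while IVM against VVM had 2 higher and 1 lower (median -0.03). More were lower than higher from PM under all 3 scalings. The counts were 2 higher and 11 lower in IVM and 3 higher and 10 lower in VVM after centring. They were 6 higher and 9 lower in IVM and 4 higher and 8 lower in VVM after cyclic loess. Of the E2 genes 62.5% were called in IVM and 45.8% in VVM against PM, beside 45.9% and 39.8% of all genes. Bright genes at large also fell more often than they rose from PM. With a mean log2 of at least 8, 34.1% fell and 21.6% rose in IVM, and 34.3% fell and 17.7% rose in VVM. UBE2K, which builds chains linked through lysine 48, was at 3.69, 4.92 and 6.45 in IVM, 4.61, 6.34, 5.78 and 6.01 in VVM and 8.47, 8.51, 8.53 and 8.36 in PM. All 7 matured arrays lay below the 4 PM arrays, with a wide spread in IVM, and the difference was -3.45 ± 0.54 SE in IVM (adjusted p = 0.000684) and -2.78 ± 0.50 SE in VVM (adjusted p = 0.00176). UBE2K was below the array medians on 2 IVM arrays and on VVM 1.

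UBE2G1, an E2 of protein quality control, was at 8.57, 7.91 and 8.50 in IVM, 9.0, 8.65, 8.87 and 8.49 in VVM and 10.16, 10.11, 10.07 and 9.97 in PM. UBE2E2 was at 9.30, 9.17 and 9.49 in IVM, 10.32, 10.07, 9.43 and 9.93 in VVM and 10.93, 11.08, 11.23 and 11.14 in PM. Both fell in IVM (-1.75 ± 0.17 SE and -1.78 ± 0.19 SE, adjusted p = 4.15e-05 and 5.45e-05) and in VVM (-1.33 ± 0.16 SE and -1.16 ± 0.17 SE, adjusted p = 0.000144 and 0.000511) against PM, and PM stood apart from both. The UBE2D family, E2s that serve many ligases, had all 4 members (UBE2D1 to UBE2D4) called lower in IVM against PM, with the largest difference in UBE2D1 (log2 difference -1.53 ± 0.28 SE, adjusted p = 0.00179).

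**Figure D3:**
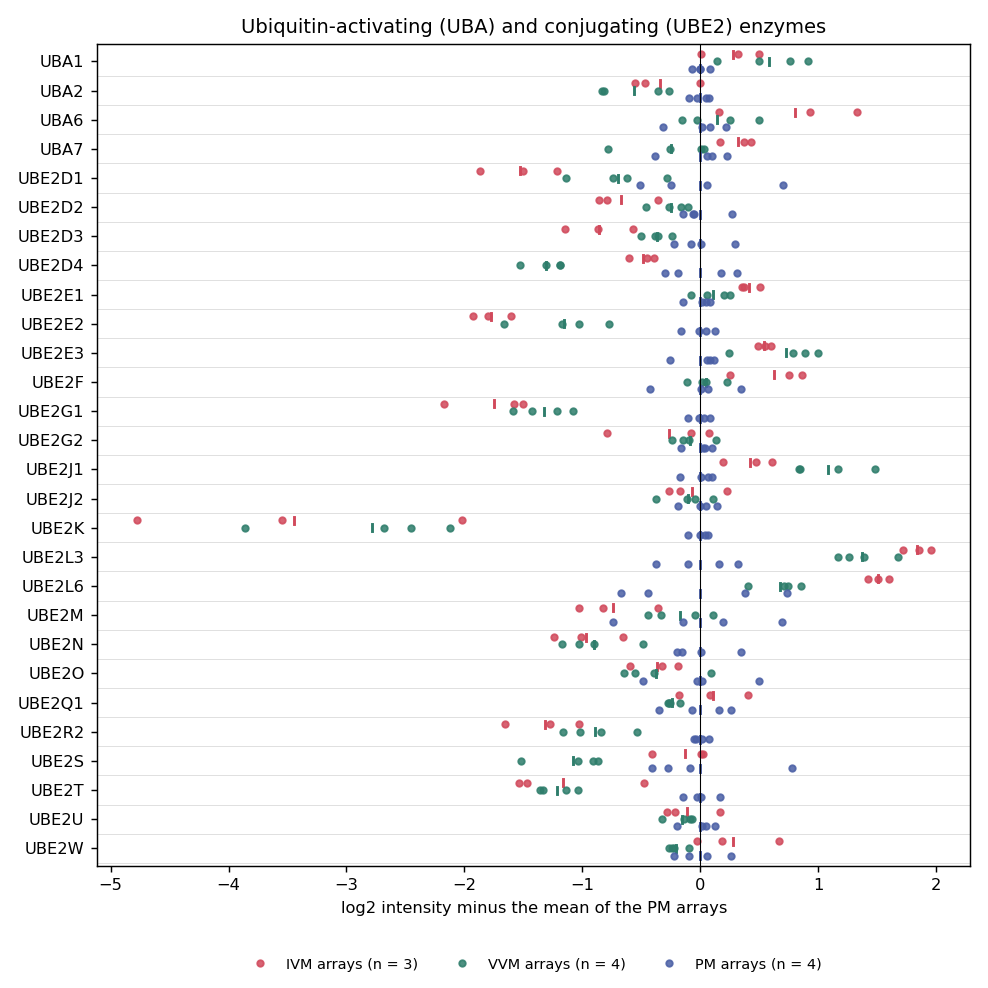
Each dot is 1 array, as log2 intensity minus the mean of that gene's 4 PM arrays, for the E1 enzymes (UBA) and the E2 enzymes (UBE2). Short bars are group means, with IVM above VVM above PM in each row. UBE2K, UBE2G1 and UBE2E2 have all IVM and VVM arrays to the left of the PM arrays, and UBE2L3 has them to the right.

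A few E2 genes set the 2 matured groups apart. UBE2D4 was at 8.52, 8.67 and 8.73 in IVM, 7.59, 7.94, 7.82 and 7.93 in VVM and 9.30, 8.94, 8.83 and 9.43 in PM. The 3 groups did not overlap, with PM highest and VVM lowest (IVM against VVM log2 difference 0.82 ± 0.16 SE, adjusted p = 0.00755; VVM against PM -1.30 ± 0.15 SE, adjusted p = 9.58e-05). The smaller difference of IVM from PM (log2 difference -0.48 ± 0.16 SE, adjusted p = 0.0317) lost its call without PM 1, PM 4, IVM 1 or IVM 2. UBE2S, which extends lysine 11 chains for the anaphase-promoting complex, was at 8.98, 9.40 and 9.41 in IVM, 7.87, 8.36, 8.48 and 8.53 in VVM and 8.98, 10.17, 9.12 and 9.30 in PM. IVM overlapped PM while VVM lay below both (VVM against PM -1.08 ± 0.25 SE, adjusted p = 0.00692). The UBE2S call in IVM against VVM (log2 difference 0.95 ± 0.27 SE, adjusted p = 0.0416) was lost without PM 4, IVM 2, IVM 3 or any one VVM array and after centring. Leaving out PM 1, VVM 2 and VVM 3 together ended this call (1.06, adjusted p = 0.109) and that of UBE2D4 in IVM against PM (-0.43, adjusted p = 0.121). UBE2J1, an E2 of endoplasmic reticulum-associated degradation, was at 8.06, 7.78 and 8.20 in IVM, 9.07, 8.44, 8.44 and 8.76 in VVM and 7.69, 7.60, 7.66 and 7.42 in PM. VVM was the high group, 1.08 ± 0.16 SE above PM (adjusted p = 0.000447). The lower level in IVM than in VVM (log2 difference -0.66 ± 0.17 SE, adjusted p = 0.0286) lost its call without IVM 1, IVM 2, VVM 1 or VVM 4. IVM and PM differed by 0.42 ± 0.17 SE (adjusted p = 0.0658), a call gained without IVM 2 or VVM 1.

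UBE2L6, the E2 that partners UBA7 on ISG15, was at 9.25, 9.43 and 9.33 in IVM, 8.23, 8.67, 8.57 and 8.53 in VVM and 7.38, 7.15, 8.56 and 8.20 in PM. It rose in IVM against PM (log2 difference 1.51 ± 0.29 SE, adjusted p = 0.00213), and VVM overlapped PM. Its difference of IVM from VVM was 0.83 ± 0.29 SE (adjusted p = 0.0888). UBE2L3, which works with HECT and RBR ligases, was at 11.11, 11.01 and 10.88 in IVM, 10.42, 10.55, 10.83 and 10.32 in VVM and 8.78, 9.31, 9.48 and 9.06 in PM. The probe set read here rose in IVM (log2 difference 1.84 ± 0.18 SE, adjusted p = 3.36e-05) and in VVM (1.37 ± 0.16 SE, adjusted p = 0.000124) against PM. Its other 2 probe sets were called lower in both, with log2 differences of -0.55 and -0.57 in IVM and -0.85 and -1.11 in VVM, so the array gives no single direction for UBE2L3.

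Of 8 genes of cullins, the scaffolds of the largest ligase family, 1 was called in IVM against VVM. From PM, 1 was higher and 3 lower in IVM, and 1 higher and 2 lower in VVM. The called shares were 12.5%, 50.0% and 37.5%, beside 16.7%, 45.9% and 39.8% of all genes. After cyclic loess the counts from PM were 2 higher and 2 lower in IVM and 2 higher and 1 lower in VVM. CUL4B was at 9.82, 9.99 and 10.02 in IVM, 11.11, 10.61, 10.80 and 11.27 in VVM and 11.18, 10.78, 10.78 and 10.83 in PM. IVM lay below both other groups (-1.0 ± 0.17 SE from VVM, adjusted p = 0.0038; -0.95 ± 0.17 SE from PM, adjusted p = 0.00142). Against VVM all 3 CUL4B probe sets were lower in IVM, 2 of them called, but the dimmer ones did not fall from PM and the mean of the 3 differed from PM by 0.01. In VVM against PM the dimmer ones were called higher (log2 differences 1.65 and 1.45, adjusted p = 0.000805 and 0.00661). The CUL4B probe set read here differed by 0.05 there. CUL4A, its close relative, fell in VVM against PM (log2 difference -0.71 ± 0.16 SE, adjusted p = 0.00557), a call lost without PM 1, VVM 2 and VVM 3 together (-0.58, adjusted p = 0.124). CUL4A was also called lower in IVM against PM. CUL5, the partner of SOCS-box proteins, fell in IVM against PM (log2 difference -1.0 ± 0.24 SE, adjusted p = 0.00748), with a difference of -0.66 and still called without IVM 2. CUL3, the partner of BTB proteins, rose in VVM (log2 difference 0.63 ± 0.12 SE, adjusted p = 0.00209) and in IVM (0.45 ± 0.13 SE, adjusted p = 0.0165) against PM. Its second probe set was called lower in both groups, and the mean of both probe sets differed by -0.16 in VVM. After centring no cullin was called higher in IVM against PM. The IVM calls of CUL4A and CUL3 were not followed with arrays left out.

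Of the 46 F-box genes, 4 rose and 8 fell in IVM against VVM, 7 rose and 15 fell in IVM against PM, and 9 rose and 11 fell in VVM against PM. The median log2 differences were -0.06, -0.22 and -0.06. More fell than rose in each comparison also after centring (4 and 9, 5 and 20, 6 and 14) and after cyclic loess (4 and 8, 8 and 16, 7 and 10). Of the F-box genes 26.1%, 47.8% and 43.5% were called, beside 16.7%, 45.9% and 39.8% of all genes. Over all genes 7.63%, 20.9% and 21.8% fell, and 14.2%, 34.1% and 34.3% of those with a mean log2 of at least 8. After centring, falls also outnumbered rises over all genes (1072 higher and 1117 lower, 2078 and 3406, 1708 and 3530). Single genes moved much further than the medians and in patterns of their own.

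FBXO21 was at 9.33, 8.66 and 8.54 in IVM, 11.28, 10.46, 10.67 and 11.36 in VVM and 9.22, 8.60, 8.81 and 9.59 in PM. It was high in VVM alone. IVM was 4.28-fold below VVM (log2 difference -2.10 ± 0.29 SE, adjusted p = 0.00153) and VVM was 3.7-fold above PM (1.89 ± 0.27 SE, adjusted p = 0.000443). IVM and PM overlapped (-0.21 ± 0.29 SE, adjusted p = 0.581). FBXO32, the muscle atrophy ligase known as atrogin-1, was at 9.48, 8.85 and 6.38 in IVM, 10.30, 9.91, 11.49 and 9.56 in VVM and 7.68, 6.91, 7.60 and 7.68 in PM. VVM was above PM by 2.84 ± 0.60 SE (adjusted p = 0.00425; 2.53 and adjusted p = 0.064 without PM 1, VVM 2 and VVM 3 together), and IVM 3 lay below all PM arrays while the other IVM arrays lay above them. The IVM against VVM difference of FBXO32 was -2.08 ± 0.64 SE (adjusted p = 0.0607) and was called without IVM 1. All 5 of its probe sets were called higher in VVM against PM. FBXL12 was at 9.17, 9.03 and 8.93 in IVM, 9.94, 9.71, 10.33 and 9.82 in VVM and 7.95, 7.15, 7.79 and 7.85 in PM. Both matured groups lay above PM (1.36 ± 0.20 SE in IVM, adjusted p = 0.000478; 2.27 ± 0.19 SE in VVM, adjusted p = 1.66e-05). IVM lay below VVM (log2 difference -0.91 ± 0.20 SE, adjusted p = 0.0147), a call lost without IVM 2 and without PM 1, VVM 2 and VVM 3 together (-0.84, adjusted p = 0.0655). The other 2 probe sets of FBXL12 differed from PM by 0.15 and -0.42 in IVM, the second of them called lower.

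FBXO34 was at 8.85, 8.50 and 8.54 in IVM, 10.40, 10.86, 10.56 and 10.93 in VVM and 10.60, 11.17, 10.92 and 10.28 in PM. IVM stood 4.15-fold below VVM (log2 difference -2.05 ± 0.21 SE, adjusted p = 0.000326) and 4.31-fold below PM (-2.11 ± 0.21 SE, adjusted p = 4.37e-05), and VVM and PM overlapped. FBXO30 was at 6.96, 5.85 and 6.96 in IVM, 8.58, 7.71, 7.67 and 7.58 in VVM and 9.03, 9.22, 8.77 and 8.34 in PM. It fell in IVM against PM (log2 difference -2.25 ± 0.32 SE, adjusted p = 0.000414). Its call against VVM (log2 difference -1.29 ± 0.32 SE, adjusted p = 0.0261) was lost without IVM 2 or VVM 1. Its call in VVM against PM (log2 difference -0.96 ± 0.30 SE, adjusted p = 0.0318) was lost without any of PM 1, PM 2, PM 3, VVM 2, VVM 3 and VVM 4. FBXW7, which marks cyclin E and MYC for degradation, was at 7.98, 7.18 and 9.02 in IVM, 9.67, 9.99, 8.79 and 9.05 in VVM and 10.19, 10.57, 10.40 and 10.28 in PM. It fell in IVM against PM (log2 difference -2.30 ± 0.38 SE, adjusted p = 0.000981). In IVM against VVM its arrays overlapped, and its call there (log2 difference -1.32 ± 0.38 SE, adjusted p = 0.0482) was lost without any one array other than IVM 3 and VVM 3, with a difference of -0.87 without IVM 2. In VVM against PM it was at adjusted p = 0.0552 (difference -0.98 ± 0.35 SE). Leaving out PM 1, VVM 2 and VVM 3 together ended the calls against VVM of FBXO30 (-1.49, adjusted p = 0.085) and FBXW7 (-1.30, adjusted p = 0.147), and that of FBXO30 in VVM against PM (-0.70, adjusted p = 0.326).

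FBXL7 was at 8.77, 8.89 and 9.04 in IVM, 9.32, 10.26, 9.16 and 9.80 in VVM and 10.33, 10.63, 10.61 and 10.58 in PM. It fell in IVM (log2 difference -1.64 ± 0.23 SE, adjusted p = 0.000302) and in VVM (-0.90 ± 0.21 SE, adjusted p = 0.00726), and both groups lay below PM on every array. FBXW4 also fell in IVM (-1.51 ± 0.16 SE, adjusted p = 5.91e-05) and in VVM (-0.92 ± 0.15 SE, adjusted p = 0.000855). It was also lower in IVM than in VVM (-0.59 ± 0.16 SE, adjusted p = 0.0355, lost without any one IVM array, VVM 1 or VVM 2). FBXO5, the inhibitor of the anaphase-promoting complex known as EMI1, was at 5.70, 6.98 and 6.90 in IVM, 6.0, 6.86, 6.51 and 6.77 in VVM and 8.64, 7.69, 8.0 and 8.01 in PM. It fell in IVM (log2 difference -1.56 ± 0.33 SE, adjusted p = 0.00366) and VVM (-1.55 ± 0.30 SE, adjusted p = 0.00284). Proliferation markers (14 measured) averaged 7.07 to 8.62 in IVM, 7.24 to 8.49 in VVM and 10.06 to 10.32 in PM, so they moved with FBXO5, and their part in its fall was not tested. Higher in IVM than in VVM were FBXL15 (log2 difference 0.79 ± 0.16 SE, adjusted p = 0.0107, lost without IVM 2) and FBXW5 (0.82 ± 0.19 SE, adjusted p = 0.0185, lost without IVM 1 or IVM 2). The IVM against VVM calls of FBXW4 (-0.52, adjusted p = 0.0958), FBXL15 (0.78, adjusted p = 0.0526) and FBXW5 (0.82, adjusted p = 0.0711) were also lost without PM 1, VVM 2 and VVM 3 together.

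Among the 50 deubiquitinases, 4 rose and 8 fell in IVM against VVM, 16 rose and 12 fell in IVM against PM, and 11 rose and 11 fell in VVM against PM. The split from PM turned with the scaling, to 12 higher and 16 lower in IVM and 8 higher and 11 lower in VVM after centring, and 16 higher and 7 lower in VVM after cyclic loess. The 3 UCHL genes all rose in IVM against PM, where 25.0% of all genes rose. UCHL1, an enzyme abundant in neurons and germ cells, was at 12.46, 11.66 and 11.93 in IVM, 12.29, 11.39, 11.92 and 11.19 in VVM and 9.98, 9.32, 9.24 and 9.52 in PM. All 7 matured arrays lay above the PM arrays, 5.66-fold in IVM (log2 difference 2.50 ± 0.28 SE, adjusted p = 9.05e-05) and 4.54-fold in VVM (2.18 ± 0.26 SE, adjusted p = 0.000138), and IVM and VVM overlapped. UCHL3 was at 9.49, 9.05 and 9.49 in IVM, 8.58, 7.86, 8.48 and 8.51 in VVM and 7.98, 7.94, 8.24 and 8.30 in PM. It was high in IVM alone (0.98 ± 0.19 SE from VVM, adjusted p = 0.00788; 1.23 ± 0.19 SE from PM, adjusted p = 0.000668; VVM from PM 0.24 ± 0.18 SE, adjusted p = 0.32). UCHL5, which sits on the 19S cap, was higher in IVM than in VVM by 0.62 ± 0.13 SE (adjusted p = 0.00952) and than in PM by 0.59 ± 0.13 SE (adjusted p = 0.00403), but its other 2 probe sets had negative, uncalled differences from VVM.

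In the OTU family of 12, 1 rose and 2 fell in IVM against VVM. From PM, 4 rose and 2 fell in IVM, and 4 rose and 1 fell in VVM. The called shares were 25.0%, 50.0% and 41.7%, beside 16.7%, 45.9% and 39.8% of all genes. OTUB1, which also binds charged E2s and blocks them, was at 10.36, 10.31 and 10.46 in IVM, 9.56, 9.17, 9.62 and 9.11 in VVM and 9.29, 9.43, 9.36 and 9.17 in PM. IVM lay about a log2 unit above both other groups (log2 difference 1.01 ± 0.14 SE, adjusted p = 0.00162 against VVM; 1.06 ± 0.14 SE, adjusted p = 0.000272 against PM). Its second probe set had a difference of 0.11 from VVM (adjusted p = 0.619) and was called lower against PM. OTUD6A was at 8.32, 8.82 and 8.17 in IVM, 7.67, 7.73, 7.52 and 8.06 in VVM and 5.73, 6.28, 6.55 and 5.71 in PM. It rose in both matured groups, 5.17-fold in IVM (log2 difference 2.37 ± 0.23 SE, adjusted p = 3.98e-05) and 3.2-fold in VVM (1.68 ± 0.22 SE, adjusted p = 0.000209). OTUB2 was at 7.22, 6.66 and 7.10 in IVM, 7.70, 6.87, 8.24 and 7.24 in VVM and 5.63, 5.59, 5.78 and 5.96 in PM. It was 1.25 ± 0.27 SE above PM in IVM (adjusted p = 0.00445) and 1.77 ± 0.25 SE above PM in VVM (adjusted p = 0.000401). Neither OTUD6A nor OTUB2 was called in IVM against VVM.

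OTUD4 and OTUD1 fell. OTUD4 was at 8.30, 8.04 and 8.63 in IVM, 9.53, 9.53, 8.80 and 9.53 in VVM and 10.61, 10.62, 10.59 and 10.45 in PM. The groups formed 3 steps without overlap. The difference was -1.03 ± 0.20 SE in IVM against VVM (adjusted p = 0.00699), -2.25 ± 0.20 SE in IVM against PM (adjusted p = 2.14e-05) and -1.22 ± 0.18 SE in VVM against PM (adjusted p = 0.000511). OTUD1 was at 3.96, 4.32 and 4.42 in IVM, 4.89, 5.92, 6.87 and 5.74 in VVM and 6.47, 6.24, 6.96 and 6.44 in PM. All IVM arrays were below the array medians, and IVM was 4.91-fold below PM (log2 difference -2.30 ± 0.36 SE, adjusted p = 0.000689). The OTUD1 call in IVM against VVM (log2 difference -1.62 ± 0.36 SE, adjusted p = 0.0149) was lost without IVM 1 and without PM 1, VVM 2 and VVM 3 together (-1.08, adjusted p = 0.0761).

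Of 35 USP genes, 1 rose and 6 fell in IVM against VVM, 9 rose and 10 fell in IVM against PM, and 6 rose and 10 fell in VVM against PM (11 and 6 after cyclic loess). USP21, a deubiquitinase of histone H2A, was at 5.83, 8.34 and 8.51 in IVM, 7.88, 7.36, 8.94 and 8.64 in VVM and 12.06, 12.46, 12.09 and 12.36 in PM. All 7 matured arrays lay over 3 log2 units below the lowest PM array (log2 difference -4.68 ± 0.57 SE, adjusted p = 0.000142 in IVM; -4.04 ± 0.53 SE, adjusted p = 0.000234 in VVM). All 4 of its probe sets were called lower in VVM against PM and 3 of 4 in IVM against PM. USP16, another H2A deubiquitinase that acts at mitosis, was at 6.90, 6.40 and 7.53 in IVM, 7.80, 8.73, 8.52 and 7.31 in VVM and 9.86, 9.49, 9.89 and 9.20 in PM. It fell in IVM (-2.67 ± 0.35 SE, adjusted p = 0.000233) and in VVM (-1.52 ± 0.33 SE, adjusted p = 0.00473). USP2 was at 5.92, 6.29 and 5.88 in IVM, 6.11, 6.53, 6.23 and 5.62 in VVM and 9.49, 8.67, 7.66 and 7.43 in PM. Its PM arrays spanned over 2 log2 units and still lay above every matured array (log2 difference -2.29 ± 0.42 SE, adjusted p = 0.00169 in IVM; -2.19 ± 0.39 SE, adjusted p = 0.00155 in VVM).

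USP13 was at 10.76, 9.82 and 9.95 in IVM, 10.84, 10.54, 10.89 and 10.31 in VVM and 8.62, 8.61, 8.97 and 8.78 in PM. It rose in IVM (log2 difference 1.43 ± 0.22 SE, adjusted p = 0.000653) and VVM (1.90 ± 0.21 SE, adjusted p = 7.74e-05). USP38 rose in IVM against PM (log2 difference 1.29 ± 0.26 SE, adjusted p = 0.00312), but the second of its 2 probe sets had a difference of -0.59 (adjusted p = 0.0774). USP54 fell in IVM (-1.18 ± 0.28 SE, adjusted p = 0.00706) and in VVM (-1.34 ± 0.26 SE, adjusted p = 0.00279) against PM. USP53 and USP25 fell in IVM against VVM. USP53 was at 7.06, 6.67 and 5.84 in IVM, 8.93, 7.48, 8.19 and 8.61 in VVM and 7.87, 8.98, 7.43 and 8.38 in PM (log2 difference -1.78 ± 0.42 SE, adjusted p = 0.0202 against VVM; -1.64 ± 0.42 SE, adjusted p = 0.0104 against PM). The call of USP53 against VVM was lost without IVM 2, IVM 3 or VVM 1, and that of USP25 (log2 difference -1.18 ± 0.30 SE, adjusted p = 0.0283) without IVM 2 and without PM 1, VVM 2 and VVM 3 together (-1.47, adjusted p = 0.0517). USP32 was high in VVM alone, at 8.19 ± 0.21 in IVM, 8.89 ± 0.15 in VVM and 7.92 ± 0.10 in PM (IVM against VVM log2 difference -0.70 ± 0.13 SE, adjusted p = 0.00609; VVM against PM 0.97 ± 0.12 SE, adjusted p = 0.000166).

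**Figure D4:**
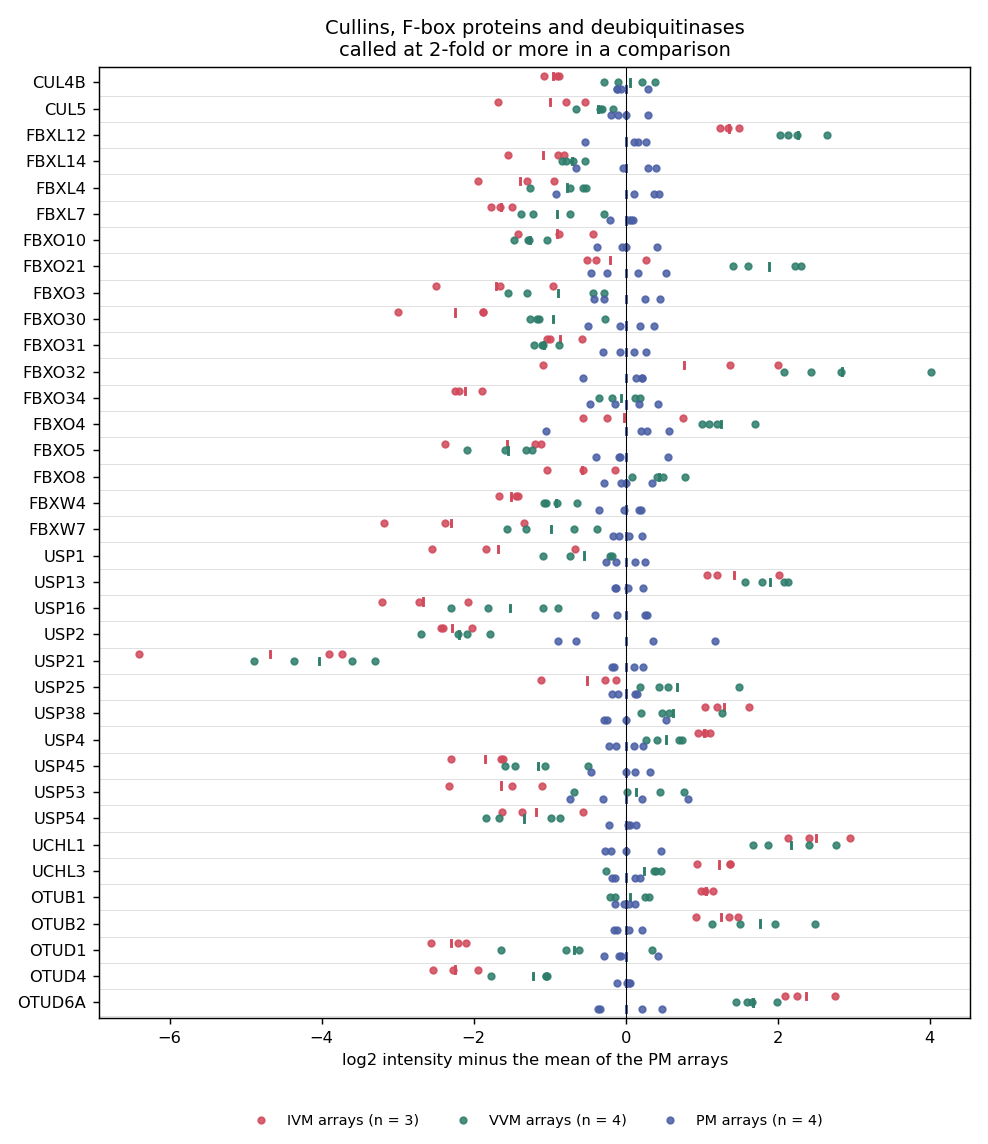
Each dot is 1 array, as log2 intensity minus the mean of that gene's 4 PM arrays, for the 36 cullins, F-box proteins and deubiquitinases other than USP14 that were called at 2-fold or more in a comparison. Short bars are group means, with IVM above VVM above PM in each row. USP21 has all IVM and VVM arrays over 3 log2 units to the left of the PM arrays, UCHL1 has them to the right, and FBXO21 has only the VVM arrays to the right.

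USP14 is a deubiquitinase bound to the 19S cap, and 5 probe sets carry its name. The brightest was at 4.16, 6.09 and 5.16 in IVM, 14.04, 14.41, 12.69 and 13.62 in VVM and 14.14, 13.22, 13.20 and 13.68 in PM. The difference was -8.55 ± 0.47 SE in IVM against VVM (adjusted p = 1.06e-05) and -8.42 ± 0.47 SE in IVM against PM (adjusted p = 3.33e-06). Over the 5 probe sets the values lay between 3.15 and 6.09 in IVM, 10.65 and 14.41 in VVM, and 11.32 and 14.14 in PM. One of the 5 has the same source accession in the annotation as the probe set of HBB, the beta chain of haemoglobin. The probe set of HBB was at 6.89, 6.47 and 6.25 in IVM, 9.57, 9.89, 8.15 and 9.59 in VVM and 7.65, 7.23, 7.43 and 7.81 in PM. That of HBA was at 7.07, 7.44 and 6.49 in IVM, 8.35, 9.96, 7.45 and 8.21 in VVM and 9.89, 7.85, 7.78 and 8.57 in PM. IVM was called lower than VVM for HBB (log2 difference -2.76 ± 0.35 SE, adjusted p = 0.000933). The globin probe sets thus also had their lowest values in IVM. Which transcript the USP14-named probe sets measure was not tested, so no change of USP14 is read from them. Among the other 49 deubiquitinases, 4 rose and 7 fell in IVM against VVM, and 16 rose and 11 fell in IVM against PM. These were 22.4% and 55.1% called, beside 16.7% and 45.9% of all genes.

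**Figure D5:**
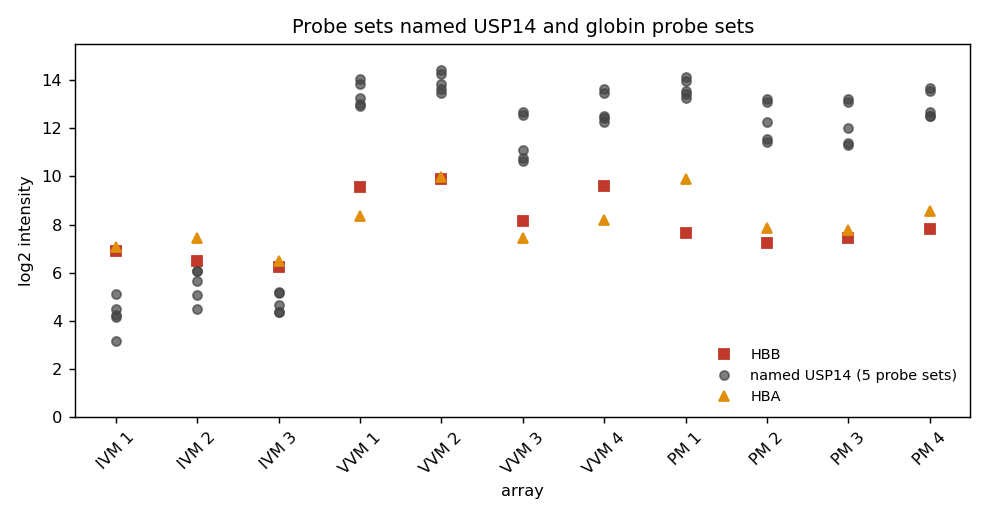
Log2 intensity of the 5 probe sets named USP14 (grey circles) and of the probe sets of HBA (triangles) and HBB (squares) on each array, from IVM through VVM to PM. The USP14-named values lie between 3.15 and 6.09 on the IVM arrays and between 10.65 and 14.41 on the others, and the HBB values are 6.25 to 6.89 on the IVM arrays and 7.23 to 9.89 on the others.

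Of the 166 genes, 97 had more than 1 probe set. Among the called genes with several, none of 27 had a probe set called the other way in IVM against VVM. In IVM against PM, 12 of 56 had one (CUL3, FBXL12, OTUB1, PSMA2, PSMB1, PSME2, PSMG2, UBA6, UBE2E1, UBE2L3, USP15 and USP33). In VVM against PM, 6 of 43 had one (CUL3, PSMB2, PSME3, PSMG2, UBE2L3 and USP33). Probe sets of these genes can read different transcripts, and which end or isoform they read was not tested. The 2 symbols that match by letters alone are PSMC3IP, a partner of the meiotic recombinase, and USP6NL-AS1, an antisense RNA. PSMC3IP was lower in IVM than in VVM (log2 difference -0.75 ± 0.15 SE, adjusted p = 0.00949, lost without PM 1, VVM 2 and VVM 3 together at -0.57, adjusted p = 0.102), and USP6NL-AS1 was below the array median.

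Other genes of the pathway were counted from lists. In the COP9 signalosome, which trims NEDD8 off cullins, 3 rose and 1 fell in IVM against VVM, 4 rose and 2 fell in IVM against PM, and 1 rose and 3 fell in VVM against PM (2 and 1 after cyclic loess), of 10. In the anaphase-promoting complex, the ligase of cyclin B, 4 rose and none fell in IVM against VVM, 3 rose and 2 fell in IVM against PM (1 and 2 after centring), and 1 rose and 6 fell in VVM against PM (3 and 2 after cyclic loess), of 12. Among 11 helpers such as ubiquitin shuttles and proteasome transcription factors, 1 rose and 1 fell, 2 rose and 2 fell, and 1 rose and 3 fell in the same 3 comparisons, and the count in IVM against PM was 1 and 4 after centring and 3 and 1 after cyclic loess. Among 11 other deubiquitinases the counts were 2 higher and 1 lower, 2 higher and 2 lower, and 4 higher and 3 lower (2 and 3 after centring). STAMBPL1, a deubiquitinase of endosomes, was at 10.41, 11.09 and 10.56 in IVM, 9.43, 7.84, 9.53 and 9.94 in VVM and 6.29, 6.35, 7.08 and 6.58 in PM. The 3 groups did not overlap (IVM against PM log2 difference 4.11 ± 0.41 SE, adjusted p = 4.66e-05; VVM against PM 2.61 ± 0.38 SE, adjusted p = 0.000496).

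Among ligases outside the F-box and cullin genes, more fell than rose. Of 32 RING and HECT ligases, 3 rose and 6 fell in IVM against VVM. In IVM against PM 4 rose and 20 fell (median log2 difference -0.76), and in VVM against PM 8 rose and 16 fell (median -0.51). The called shares were 28.1%, 75.0% and 75.0%, beside 16.7%, 45.9% and 39.8% of all genes. Over all genes 7.63%, 20.9% and 21.8% fell, and 14.2%, 34.1% and 34.3% of those with a mean log2 of at least 8. SIAH1, a RING ligase, was at 7.96 ± 0.30 in IVM, 9.93 ± 0.20 in VVM and 11.24 ± 0.25 in PM (IVM against VVM log2 difference -1.97 ± 0.18 SE, adjusted p = 0.000165; IVM against PM -3.27 ± 0.18 SE, adjusted p = 3.33e-06). Among 19 partners of cullins, 1 rose and 3 fell in IVM against VVM. From PM, 1 rose and 7 fell in IVM, and 2 rose and 6 fell in VVM. Of these partners 21.1%, 42.1% and 42.1% were called in the 3 comparisons, close to the shares over all genes. DTL, the CUL4 receptor that acts in S phase, was -4.18 ± 0.87 SE from PM in IVM (adjusted p = 0.00354) and -4.01 ± 0.81 SE in VVM (adjusted p = 0.00339). SKP2, the F-box receptor for the cell cycle inhibitor p27, was higher in IVM than in VVM (log2 difference 1.30 ± 0.36 SE, adjusted p = 0.0386) and lower in VVM than in PM (-2.09 ± 0.33 SE, adjusted p = 0.000783). Of 10 genes of the related SUMO pathway, 2 rose and 2 fell in IVM against VVM, none rose and 8 fell in IVM against PM, and none rose and 6 fell in VVM against PM (medians -0.02, -1.05 and -0.79). Proliferation markers fell beside these lists, 12 of 14 called lower in IVM against PM and 12 of 14 in VVM against PM, and their part in the ligase and SUMO counts was not tested.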

How the data were processed

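RNA from cumulus cells (50 ng, amplified in 2 rounds, per the labels' protocols) was hybridized to 11 arrays. The deposited table holds linear RMA intensity values made by the authors in Affymetrix Expression Console, per the submitters' processing notes; settings are not given in the sources used here. Of 52865 probe sets, 99 control ones were set aside. In the platform annotation, 24956 of the others had 1 gene symbol, 361 several and 27449 none, and names were taken from the first kind; 24629 of 25330 annotation entries matched RefSeq.

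The deposited intensities were turned to log2 values with no pseudocount and no further normalization (array medians 5.34 to 5.53). limma 3.58.1 (R 4.3.3) fitted the 3 group means to all 52766 probe sets with lmFit and eBayes (8 residual and 3.30 prior degrees of freedom), and p-values were adjusted by Benjamini-Hochberg in each comparison. Tables were joined with Python 3.11.15 and pandas 2.3.3. The procedure was tested on simulated data. Arrays give no read depth, so their number limits the precision.

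Each symbol was read from its probe set with the highest mean. Members and gene lists were chosen with earlier results of these data known. In each comparison the genes named were the 8 largest rises and falls among called genes whose groups did not overlap, and the 2 largest differences in each role; further genes were named after their values were seen. Groups and array numbers come from the sample titles. Alternatives covered scaling, filters, probe set choice, the variance prior, array weights, the replicate number, covariates, thresholds and left-out arrays.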

Additional observations from a re-analysis of the deposited data

Results flagged for a closer look

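Single arrays stood apart from the other 3 of their group for 10 of the 152 groups of 4 examined among 76 named genes, about as many as 1 in 20. In VVM these were CUL3 on VVM 1 (11.91), FBXO30 on VVM 1 (8.58), UCHL3 on VVM 2 (7.86), OTUD4 on VVM 3 (8.80) and PSMC3 on VVM 4 (7.77). In PM they were CUL4B on PM 1 (11.18), FBXL7 on PM 1 (10.33), FBXO32 on PM 2 (6.91), PSMC5 on PM 2 (10.61) and FBXW5 on PM 4 (11.01), all as log2 intensity.

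Among the 76 named genes, the change from PM had opposite signs in IVM and VVM for 15 that limma also called in IVM against VVM. None of the 166 genes was called in opposite directions from PM, and 0.594% of all genes were. The dimmer probe sets of UCHL5 and CUL4B had positive differences from PM in IVM and in VVM. In VVM these were called, at 1.24 and 1.27 for UCHL5 and 1.65 and 1.45 for CUL4B. The IVM minus VVM difference, which is the difference between both changes, was 0.67 for PSMA7, 0.98 for PSMC4, 0.82 for PSMD1, 0.75 for PSMD7, 0.89 for PSMD8 and 1.0 for PSMD11. It was 0.79 for PSMG1, 1.23 for PSMG3, 1.28 for PSMG4, 0.82 for FBXW5 and 0.62 for UCHL5. It was -1.0 for CUL4B, -2.10 for FBXO21, -1.78 for USP53 and -8.55 for the probe set named USP14. The 11 positive values include 6 proteasome subunits and 3 assembly chaperones. Over the 15 genes, most changes of VVM from PM were small and uncalled, some of them close to none (-0.0023 for PSMD7 and -0.014 for PSMG1). The exceptions were PSMC4, PSMG3 and FBXO21, which were called in VVM against PM but not in IVM against PM.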

How the results depend on the processing

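Of 158 named differences, 124 were called, and 29 of these lost their call without at least 1 array. Calls lost were 10 after centring, 6 after cyclic loess, 19 with the mean of all probe sets, 3 without _s_at and _x_at probe sets, 105 with the hybridization control covariate, 35 with the 3'/5' covariate and 33 without PM 1, VVM 2 and VVM 3. The hybridization controls separate all 3 groups, so their effect cannot be told apart from the group's in any comparison. The log2 3'/5' values were 3.67 to 4.36 in IVM, 3.44 to 3.90 in VVM and 3.20 to 3.45 in PM. Those of IVM overlap VVM and those of VVM overlap PM. All IVM arrays lay above all PM arrays, so in IVM against PM this effect cannot be told apart from the group's either. Signal near the array median limits UBE2K, OTUD1 and PSMB11.

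In IVM against VVM, the 44 called genes became 5 with the hybridization covariate, 25 without PM 1, VVM 2 and VVM 3, 18 at an adjusted p under 0.01 and 17 at 2-fold, and the 11 proteasome subunits became 1, 4, 3 and 2 (7 with only the 2 groups; 6 to 10 with single arrays left out). In IVM against PM, the 89 became 0 with the hybridization covariate, 39 with the 3'/5' covariate and 40 at 2-fold, and the 13 subunits became 0, 4 and 1. With the hybridization covariate, limma called 0.0142% of all genes there. In VVM against PM, the 67 became 19, 41 without the 3 arrays and 25 at 2-fold. The 5 subunits became 1 and 1 under the hybridization covariate and without the 3 arrays, 2 at an adjusted p under 0.01, 0 at 2-fold, 9 with cyclic loess or array weights, 8 with only the 2 groups, and 3 to 7 with single arrays left out.

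Samples with the same replicate number did not deviate together (correlations from -0.107 to 0.101), so the numbers were not taken as pairs. With the replicate block, 40, 84 and 63 genes were called in the 3 comparisons and the subunits in IVM against VVM were 7.

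Signs turned in these cases, and the cause was not tested. With the mean of all probe sets, IVM against PM gave CUL4B 0.011, FBXO21 0.25, PSMA2 -0.98, PSMC3IP 0.11 and UBA6 -0.27, IVM against VVM gave PSMA2 -0.28 and UCHL5 -0.034, and VVM against PM gave CUL3 -0.16, PSME3 0.15 and UBE2L3 -0.19. Without _s_at and _x_at probe sets, IVM against PM gave OTUB1 -0.90, PSMC3IP 0.58, UBE2L3 -0.55 and USP38 -0.59, and VVM against PM gave PSMA1 0.12 and UBE2L3 -0.85. With the hybridization covariate, IVM against PM gave FBXO21 0.44, FBXO32 -1.63, PSMB8 -0.63, PSMC5 -0.014, PSMF1 0.45, UBA2 0.70 and USP38 -0.15, IVM against VVM gave PSME3 0.061, and VVM against PM gave PSMA1 0.064, PSME2 -0.054 and PSMF1 0.024. With the 3'/5' covariate, IVM against PM gave FBXO32 -0.46, PSMF1 0.27 and UBA2 0.014, and VVM against PM gave PSME2 -0.014. Without PM 1, VVM 2 and VVM 3, the values were PSMF1 0.058 in IVM against PM, PSMB8 0.23 and PSME3 0.067 in IVM against VVM, and PSME2 -0.074 and PSMF1 0.055 in VVM against PM. Cyclic loess gave UBE2S 0.064 in IVM against PM. USP6NL-AS1 in IVM against VVM was -0.011 after centring, -0.062 after cyclic loess and -0.000661 with array weights, and PSME2 in VVM against PM was -0.0091 after centring. With single arrays left out, IVM against PM spanned -0.045 to 0.56 for PSMB8, -0.24 to 0.11 for PSMF1 and -0.27 to 0.13 for UBE2S, and IVM against VVM spanned -0.18 to 0.18 for PSME3, -0.050 to 0.36 for PSMF1 and -0.057 to 0.085 for USP6NL-AS1.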

Other observations

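Probe sets that the annotation assigns to several genes were left out of the 166 genes, and some name further parts of the system. Of the 3 probe sets assigned to both PSMD4, the ubiquitin receptor of the 19S cap, and PIP5K1A, 2 were higher in IVM than in VVM (log2 differences 0.79 and 0.85, adjusted p = 0.0241 and 0.00885 in limma) and the third differed by 0.11 (adjusted p = 0.702). The probe set of UBE2F and LOC697992 was higher in IVM than in VVM by 0.74 ± 0.20 SE (adjusted p = 0.0326), and UBE2F is an E2 for NEDD8. One of the 2 probe sets of USP4 and C2H3orf62 was higher in IVM than in VVM by 1.05 ± 0.17 SE and than in PM by 1.83 ± 0.17 SE (adjusted p = 0.00308 and 2.79e-05), while the other differed by 0.23 and 0.32 (adjusted p = 0.464 and 0.18). The probe set of USP9X and USP9Y was lower in IVM than in VVM (-0.86 ± 0.24 SE, adjusted p = 0.0401) and than in PM (-0.68 ± 0.24 SE, adjusted p = 0.0398). For the probe set of PSMB10 and BEX4, IVM differed by 0.10 from VVM and by -0.42 from PM (adjusted p = 0.793 and 0.101). It was lower in VVM than in PM (-0.52 ± 0.18 SE, adjusted p = 0.0464). Which gene of each pair gave the signal was not tested.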
